A study of Homo sapiens with 12 samples.

Results

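HSP90 chaperones occupy separate compartments of the human cell, and their RNA levels were followed here in cells that overproduced an oxidase of the endoplasmic reticulum (ER). The members were 5 genes: HSP90B1 of the ER, HSP90AA1 and HSP90AB1 of the cytosol, TRAP1 of the mitochondrion, and HSP90B3P, a pseudogene of HSP90B1. They were taken by symbol, as all probe sets that the platform annotation gives to exactly 1 of these genes. This gave 6 of 19158 such probe sets, 2 of them for TRAP1, and 5 of the 18404 genes tested. HSP90B1 and HSP90B3P were picked with their induction values in the mutant line already known, so their values in every comparison between groups that includes that line are given as descriptions without a p-value. Their p-values for the WT line take the spread from all 12 arrays. The other 3 genes were included as relatives of HSP90B1.

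The cells were HEK-293 Flp-In T-REx, an established human embryonic kidney line in which a transgene is placed at 1 fixed genomic site and switched on by doxycycline. All groups carried such a transgene and were grown in hygromycin B and blasticidin. One stable line carried Ero1α-WT (the WT line) and the other Ero1α-C104A/C131A (the mutant line), in which cysteines of the regulatory disulfides were replaced by alanine. Cells of both lines were harvested without doxycycline or 24 h after it was added, which made 4 groups of 3 arrays, with replicates A, B and C called biological in the titles. Whether a line was 1 clone or a pool is not given in the sources used here, and cells without a transgene were not analysed here, so effects of doxycycline and of the oxidase cannot be told apart.

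HSP90 proteins are ATP-driven dimers that help client proteins reach or keep an active shape. HSP90B1, also called GRP94 or endoplasmin, folds secreted and membrane proteins such as integrins and Toll-like receptors in the ER, and its gene is a classic target of the unfolded protein response. HSP90AA1 is the stress-inducible and HSP90AB1 the more constitutive cytosolic form, both served by a large set of co-chaperones and both linked to heat shock factor. TRAP1 works in the mitochondrial matrix. A pseudogene such as HSP90B3P resembles its parent's RNA, so that an array probe meant for one can bind RNA of the other.

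The sequences before the transcription starts are shown because the 4 protein-coding members differ in the response elements that lie there. Each line gives the 250 bases before a start from RefSeq (GRCh38.p14), 5′ to 3′ on the gene's strand. These are reference sequences, and the cells themselves were not sequenced. Capitals mark the fixed letters of any match, on either strand, to 5 motifs. ERSE, the ER stress response element, is CCAAT followed after 9 free bases by CCACG. ERSE-II is ATTGG followed after 1 free base by CCACG. The ATF6/XBP1 core is TGACGTG. The heat shock element is GAA, TTC and GAA in this order, with 2 free bases between units. The CCAAT box is CCAAT alone, and it overlaps ERSE.
HSP90B1, chr12:103930160-103930409, plus strand: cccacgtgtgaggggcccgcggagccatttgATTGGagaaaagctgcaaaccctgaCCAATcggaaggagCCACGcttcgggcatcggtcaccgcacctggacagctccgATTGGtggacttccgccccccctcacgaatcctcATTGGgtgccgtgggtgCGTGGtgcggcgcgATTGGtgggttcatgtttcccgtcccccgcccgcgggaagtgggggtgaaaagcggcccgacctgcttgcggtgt
HSP90AB1, chr6:44247693-44247942, plus strand: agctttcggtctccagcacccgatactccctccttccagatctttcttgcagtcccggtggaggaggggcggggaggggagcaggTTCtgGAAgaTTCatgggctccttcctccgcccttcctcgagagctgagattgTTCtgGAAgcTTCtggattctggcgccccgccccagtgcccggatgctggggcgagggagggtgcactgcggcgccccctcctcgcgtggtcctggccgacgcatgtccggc
HSP90AA1, chr14:102087045-102087294, minus strand: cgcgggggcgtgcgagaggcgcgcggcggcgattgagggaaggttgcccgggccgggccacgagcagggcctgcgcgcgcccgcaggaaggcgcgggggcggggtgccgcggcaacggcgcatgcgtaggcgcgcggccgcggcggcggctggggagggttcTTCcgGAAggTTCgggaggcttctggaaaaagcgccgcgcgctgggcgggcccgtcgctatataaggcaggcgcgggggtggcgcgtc
TRAP1, chr16:3717525-3717774, minus strand: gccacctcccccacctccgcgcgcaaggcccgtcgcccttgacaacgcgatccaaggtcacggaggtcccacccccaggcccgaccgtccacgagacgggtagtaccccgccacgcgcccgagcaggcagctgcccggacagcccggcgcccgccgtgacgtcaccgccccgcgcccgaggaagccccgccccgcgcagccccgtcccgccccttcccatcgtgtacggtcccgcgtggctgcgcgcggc

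Of the 4 genes with a window, HSP90B1 alone had an ERSE match, and it had 2, at 194 to 176 bases before the start on the gene's strand and at 89 to 71 on the other strand. An ERSE match was found in 0.074% of 35116 promoter windows of this length. The HSP90B1 window also held 5 CCAAT boxes, 2 of them inside the ERSE matches. The HSP90AB1 window shown held 2 heat shock elements, at 165 to 153 and 112 to 100 bases before its start, and the HSP90AA1 window held 1, at 88 to 76. A heat shock element was found in 0.441% of windows. RefSeq lists 3 starts for HSP90AB1 and 2 for HSP90AA1, and the windows shown are those with a heat shock element. Among the others, the most upstream HSP90AB1 window had a TGACGTG core (1.68% of windows) and the more upstream HSP90AA1 window a CCAAT box (32.0% of windows). The TRAP1 window had none of these letters. No ERSE-II match (0.0513% of windows) was found in any window of a member. HSP90B3P had no window in the table.

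The arrays were alike in scale. Values were log2 levels made with RMA, with a median per array of 6.36 to 6.43. Over probe sets, r between arrays of the same group was 0.992 to 0.996. ERO1A, the gene of Ero1α, checked the labels of induction. Its mean log2 level was 10.55 ± 0.11 (SD, n = 3) in uninduced and 12.68 ± 0.01 in induced WT cells, and 10.12 ± 0.06 and 12.54 ± 0.07 in mutant cells. Since it rose in both lines, it does not check which transgene a line carried. The epithelial and mesenchymal transcripts KRT8, KRT18, VIM and CDH2 had log2 levels from 9.86 to 11.95. The leukocyte and endothelial markers PTPRC, CD3E, LYZ, PECAM1 and CDH5 lay between 3.02 and 5.51, and the fibroblast genes COL3A1 and COL1A1 between 5.62 and 7.37. In these bulk samples fewer cells of a kind and less RNA per cell cannot be told apart. The number of arrays limits the precision, and p-values measure only the spread between these cultures, whose separation the titles do not explain further.

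HSP90B1 was higher after induction in both lines, and further so in the mutant line. Its log2 levels were 11.82, 11.89 and 11.85 on the uninduced WT arrays and 12.11, 12.19 and 12.20 on the induced ones. In mutant cells they were 11.80, 11.78 and 11.85 without and 12.43, 12.48 and 12.54 with doxycycline. The induced mutant arrays lay above the induced WT arrays, these lay above all uninduced arrays, and the uninduced groups overlapped. Between the induced lines 16.4% of all genes were higher in the mutant line without overlap. The rise in the WT line was 1.24-fold (log2 change 0.32 ± 0.05, SE; 95% interval 0.20 to 0.43; adjusted p = 0.047, limma), seen with no overlap between the groups. In this fit, which did not pair arrays, HSP90B1 was the 1 member of 5 that passed, where 0.114% of all genes passed, all of them higher. The call was lost when the replicate letters were used to pair the WT arrays, as given below. Groups without overlap were less rare, at 9.08% of all genes, with 5.24% higher after induction.

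**Figure D1:**
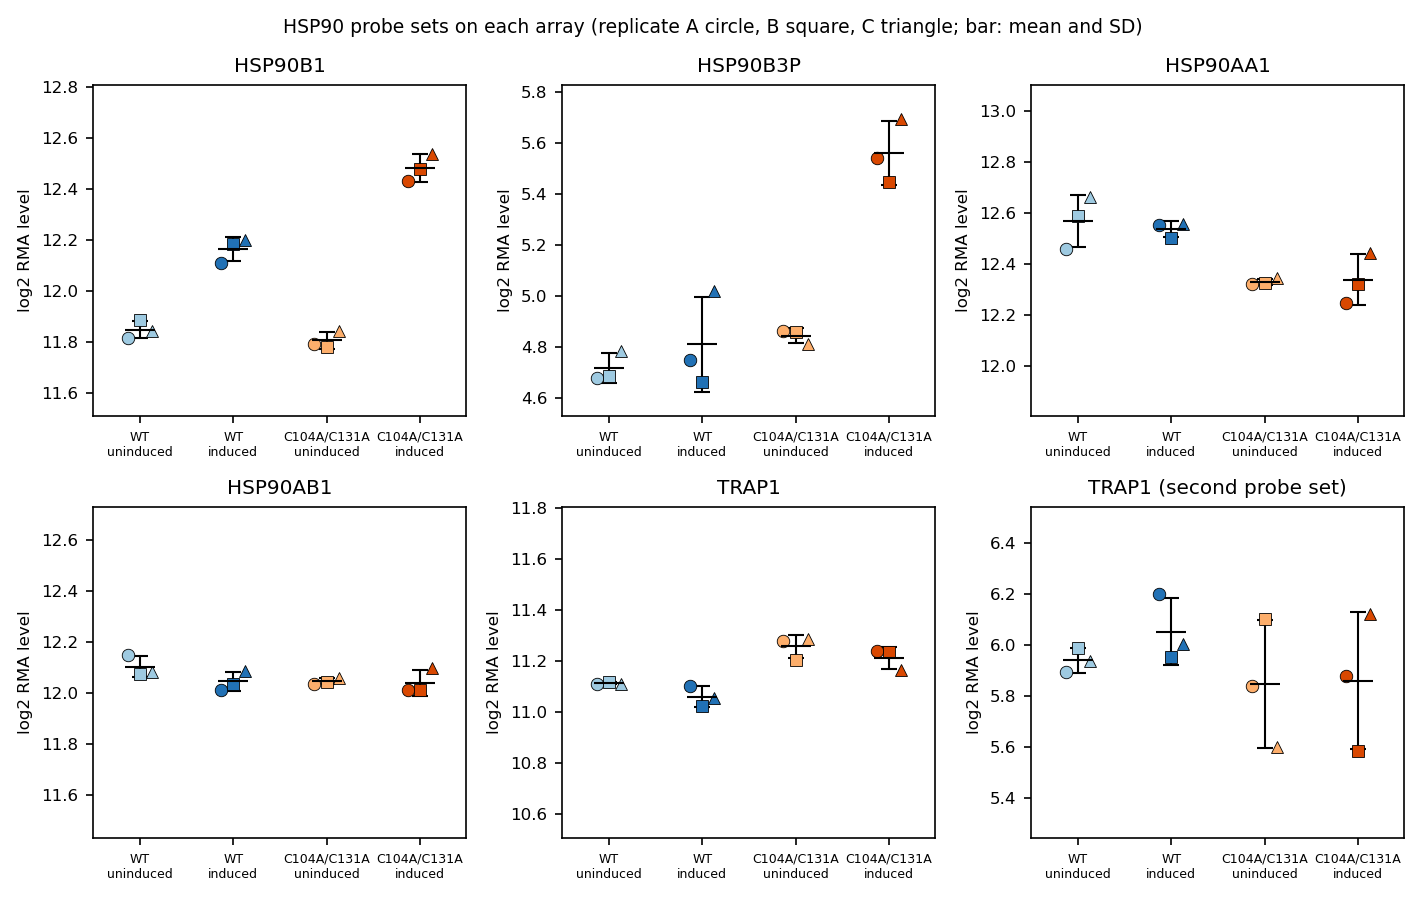
Log2 RMA level of each of the 6 probe sets on every array, by group, with the mean and SD as bars (n = 3 arrays a group) and all panels spanning the same number of log2 units. HSP90B1 steps up from about 11.8 in both uninduced groups to 12.17 in induced WT and 12.48 in induced mutant cells, and HSP90B3P is highest in induced mutant cells at 5.56. Uninduced and induced arrays overlap in both lines for HSP90AA1 and HSP90AB1, and for TRAP1 in the mutant line.

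The WT call for HSP90B1 lay close to the threshold. The log2 change stayed between 0.30 and 0.34 under 23 alternatives, while the adjusted p ranged from 4.65e-05 to 0.502 in limma, the last when the 6 WT arrays were fitted alone. Leaving out any of the 12 arrays ended the call (adjusted p from 0.059 to 0.326). The replicate letters were taken to pair the WT arrays. With the letter as a block the adjusted p in limma was 0.0809, or 0.101 with the block in the WT line alone.

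In the mutant line HSP90B1 stood 1.60-fold above its uninduced level (log2 change 0.68 ± 0.05, SE), with groups that did not overlap, as was the case for 4.51% of all genes in that direction and 11.5% in either. The log2 change was 0.36 larger than in the WT line, which is a description, since the gene was chosen on this response. The log2 change of ERO1A itself was 2.43 in the mutant and 2.13 in the WT line. Before induction the lines were close in HSP90B1, at mean log2 levels of 11.81 ± 0.03 in mutant and 11.85 ± 0.03 in WT cells (SD, n = 3 each). With induction the mutant line stood 1.25-fold above the WT line.

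HSP90B3P had its highest levels in induced mutant cells. Its log2 levels were 4.68, 4.69 and 4.79 in uninduced and 4.75, 4.67 and 5.02 in induced WT cells. They were 4.87, 4.86 and 4.81 in uninduced mutant cells, and 5.54, 5.45 and 5.70 after induction. The induced mutant arrays lay above all others. On mutant induction 4.51% of all genes were higher without overlap. The uninduced mutant arrays lay above the uninduced WT arrays by a smaller step (1.09-fold), as did those of 18.4% of all genes. The induced WT arrays overlapped both uninduced groups. The difference in the mutant line was 1.64-fold (log2 0.72 ± 0.09, SE), close to that of HSP90B1 at 1.60-fold. Of the 5 members these were the 2 past an adjusted p of 0.05 for mutant induction, where 0.326% of all genes were. Nothing is read from that count, since both were chosen on it.

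In the WT line HSP90B3P did not pass the test. Its log2 change there was 0.09 (95% interval -0.10 to 0.29; adjusted p = 0.996, limma), and the interval overlaps that of HSP90B1. With an array left out the change ran from -0.011, without WT induced C, to 0.17, without WT induced B. The difference between the genes in this line was not tested. HSP90B3P is also a dim probe set: its mean level was below 7.02, the median over all genes, so it was not tested when dim genes were left out. Array by array, its level followed HSP90B1 with r = 0.837 over the 12 arrays, a figure carried largely by the groups, and with r = 0.367 for the deviations from the group means. Among 18403 genes HSP90B3P ranked 75 in likeness to HSP90B1 by the former and 3610 by the latter. How far its probes read HSP90B1 RNA was not tested.

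Other HSP90 pseudogenes showed what such loci gave on the same arrays. The other pseudogene of HSP90B1, HSP90B2P, had mean log2 levels of 5.12 ± 0.10 and 5.27 ± 0.12 (SD, n = 3) in uninduced and induced WT cells and 5.12 ± 0.09 and 5.40 ± 0.28 in mutant cells. Its log2 change in mutant cells was 0.29 (95% interval 0.02 to 0.55; adjusted p = 0.829, limma). In WT cells it was 0.15 (-0.12 to 0.41; adjusted p = 0.996), and the groups overlapped in both lines. Of the 10 measured pseudogenes besides HSP90B3P, none passed for induction in either line by limma, and 1 (HSP90B2P in the mutant line) had an unadjusted p under 0.05. Of all genes 0.326% passed in the mutant and 0.114% in the WT line. An unadjusted p under 0.05 was found for 1082 of 18404 genes in the mutant and 820 in the WT line, so nothing is read from these counts. The log2 changes of the 10 pseudogenes ran from -0.06 to 0.29 in the mutant line and from -0.17 to 0.21 in the WT line. The 4 of HSP90AA1 (HSP90AA2P, HSP90AA4P, HSP90AA5P and HSP90AA6P) and the 5 of HSP90AB1 (HSP90AB2P to HSP90AB6P) all had intervals that include 0.

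Neither cytosolic gene passed a test of induction in either line. HSP90AA1 had log2 levels of 12.46, 12.59 and 12.66 in uninduced and 12.56, 12.50 and 12.56 in induced WT cells. In mutant cells these were 12.32, 12.33 and 12.35, and 12.25, 12.32 and 12.45. Uninduced and induced arrays overlapped in both lines. In WT cells the change was 0.979-fold (95% interval 0.887 to 1.08; adjusted p = 0.996, limma). In mutant cells it was 1.00-fold (0.911 to 1.11; adjusted p = 0.998). The difference of the 2 responses was 0.04 on the log2 scale (95% interval -0.16 to 0.24).

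HSP90AB1 too had uninduced and induced arrays that overlapped in both lines. It stood at 12.15, 12.08 and 12.09 in uninduced WT, 12.01, 12.04 and 12.09 in induced WT, 12.04, 12.04 and 12.06 in uninduced mutant, and 12.01, 12.01 and 12.10 in induced mutant cells. In WT cells the change was 0.961-fold (95% interval 0.893 to 1.04; adjusted p = 0.996, limma). In mutant cells it was 0.996-fold (0.925 to 1.07; adjusted p = 0.996). The upper bounds of both cytosolic genes, 1.11-fold at most, lie below the 1.24-fold of HSP90B1 in the WT line. These intervals bound the changes and do not show that there was none.

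TRAP1 has 2 probe sets. The brighter, which the annotation ties to its RefSeq transcripts, had log2 levels of 11.11, 11.12 and 11.11 in uninduced and 11.10, 11.02 and 11.05 in induced WT cells. In mutant cells these were 11.28, 11.21 and 11.29, and 11.24, 11.24 and 11.16. The induced WT arrays lay just below the uninduced ones, as the groups did for 3.84% of all genes in that direction, and the mutant groups overlapped. Induction left WT cells at 0.964-fold (95% interval 0.896 to 1.04; adjusted p = 0.996, limma) and mutant cells at 0.970-fold (0.901 to 1.04; adjusted p = 0.961).

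The second TRAP1 probe set, annotated with a single cDNA, was dim and more scattered. Its levels were 5.89 to 5.99 in uninduced WT, 5.95 to 6.20 in induced WT, 5.60 to 6.10 in uninduced mutant and 5.59 to 6.12 in induced mutant cells. Its log2 change was 0.11 in the WT line (95% interval -0.20 to 0.42; adjusted p = 0.997, limma over all probe sets) and 0.01 in the mutant line (-0.30 to 0.32; adjusted p = 0.998). Neither probe set passed for induction.

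HSP90AA1, HSP90AB1 and TRAP1 were tested for a difference between the 2 induction responses, and 0 of these 3 passed, as did 0% of all genes in limma. At an unadjusted p under 0.05 there were 774 of 18404 genes, fewer than that cut would give on average if no gene differed. The ordinary analysis of variance called 0, the prior with trend and robust fitting 9, the fit without dim genes 8 and array weights 4. The log2 difference of HSP90B3P was 0.62, a description like that of HSP90B1. HSP90AB1 differed by 0.05 (95% interval -0.10 to 0.20) and TRAP1 by 0.01 (-0.14 to 0.16).

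Between the lines, HSP90AA1 and TRAP1 differed in opposite directions. These comparisons reuse the arrays of the inductions, and with 1 line per transgene, line and transgene cannot be told apart. HSP90AA1 was lower in mutant cells, at 0.848-fold before induction (95% interval 0.768 to 0.935; adjusted p = 0.0207, limma) and 0.871-fold after it (0.789 to 0.960; adjusted p = 0.0462). All mutant arrays lay below all WT arrays in each state. It was the 1 member of the 3 tested that passed before induction, against 21.4% of all genes (10.5% lower), so a call here is common. Groups without overlap were also common, at 37.4% of genes before and 36.3% after induction, with 19% and 19.9% of genes lower in the mutant line. All 5 markers of the HEK-293 cells tested were higher in the mutant line before induction and 4 after it, at median log2 differences of 0.48 and 0.28. Of 7 markers of other cell types LYZ was lower in both states, and ERO1A was at 0.740-fold before induction. The part of these in the line differences of the members was not tested.

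The HSP90AA1 calls lay near the threshold. The call before induction was lost without WT uninduced B (adjusted p = 0.0681, limma), WT uninduced C (0.0877), or mutant uninduced A (0.0612), B (0.0594) or C (0.0523), while the log2 difference stayed between -0.29 and -0.19. The call after induction was lost in 12 of 22 alternatives, among them arrays centred on their medians (0.0795) and 9 of the 12 that leave out an array. Without an array the adjusted p there ranged from 0.0208 to 0.155, and only without WT uninduced A, WT uninduced C or mutant induced C did the call stand.

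TRAP1 was 1.11-fold higher in the mutant line in both states. The difference passed after induction (95% interval 1.03 to 1.20; adjusted p = 0.0432, limma) and missed the threshold before it (1.03 to 1.19; adjusted p = 0.0542). The groups did not overlap in either state, as held for 18.4% of all genes in that direction before and 16.4% after induction. Leaving out an array gave an adjusted p after induction of 0.0393 to 0.147, past the threshold only without WT uninduced A, mutant uninduced B or mutant induced C. The second probe set went the other way, by -0.09 before (adjusted p = 0.725) and -0.19 after induction (adjusted p = 0.393), on the log2 scale. With the mean of both probe sets the difference after induction was -0.020.

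HSP90AB1 stood at 0.961-fold in uninduced mutant relative to WT cells (adjusted p = 0.482, limma) and at 0.996-fold after induction (adjusted p = 0.952). The uninduced mutant arrays lay below the uninduced WT arrays, as did those of 19% of all genes, and the induced arrays of the lines overlapped. After induction 2 of the 3 members not chosen on their values, HSP90AA1 and TRAP1, passed, where 21.6% of all genes did (10.8% higher and 10.9% lower). HSP90B1 and HSP90B3P stood at 1.25-fold and 1.68-fold there, as descriptions, since these use the arrays on which they were chosen.

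Genes next to HSP90AA1 were also lower in the mutant line. Of the 20 nearest measured genes in the GRCh38.p14 gene order, 10 on each side, 9 were lower and 0 higher before induction by limma. The median log2 difference over all 20 was -0.20, beside -0.24 for HSP90AA1. The 9 lower ones ran from -0.32 to -0.56, each further from 0 than HSP90AA1. After induction 11 were lower and 0 higher (median -0.26). Over the 587 measured genes of chromosome 14 the medians were -0.02 and -0.05, with 107 lower and 85 higher before induction. The 20 neighbours of TRAP1 on chromosome 16 were mixed, with 2 higher and 2 lower before induction (median -0.02) and 1 higher and 3 lower after it. Those of HSP90AB1 were 2 higher and 2 lower, those of HSP90B1 0 higher and 2 lower, and those of HSP90B3P 1 higher and 2 lower, in each state. Of all genes 21.4% passed between the lines before and 21.6% after induction (10.5% and 10.9% lower), so counts such as those of these 3 genes and TRAP1 are common. On induction no neighbour of any member passed in either line by limma, where 0.326% of all genes passed in the mutant and 0.114% in the WT line. The part of the region in the lower HSP90AA1 level was not tested.

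Of the 10 measured pseudogenes besides HSP90B3P, 1 passed between the lines before induction and 1 after it. Of all genes 21.4% and 21.6% passed there. HSP90AA2P was 0.779-fold in the mutant line before induction (adjusted p = 0.0393, limma) and 1.01-fold after it (adjusted p = 0.970). HSP90AB3P passed after induction at 1.25-fold (adjusted p = 0.0477). The other 8 passed in neither state.

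HSP90B1 was next set among ER chaperones and folding factors, a list of 16 genes, 15 of them measured, written with earlier results of these data known. In the mutant line 13 of the 15 rose and 0 fell. Of all genes 0.321% rose. The median log2 change of the list was 0.71, against -0.01 over all genes, and HSP90B1 at 0.68 had 9 of them above it and 6 below. The changes of 4 genes led the list. HERPUD1, which serves disposal of misfolded ER proteins, was at 2.57-fold, HSPA5, which encodes the ER Hsp70 called BiP, at 2.20-fold (adjusted p = 1.32e-06, limma), SDF2L1, whose product works with BiP, at 2.16-fold and the disulfide isomerase gene PDIA4 at 2.08-fold. In the WT line 6 of the 15 rose and 0 fell, where 0.114% of all genes rose (median 0.34 against 0.00), and HSP90B1 at 0.32 again had 9 above it and 6 below. HSPA5 was at 1.59-fold there (adjusted p = 0.000597) and HERPUD1 at 1.63-fold (adjusted p = 0.00162).

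**Figure D2:**
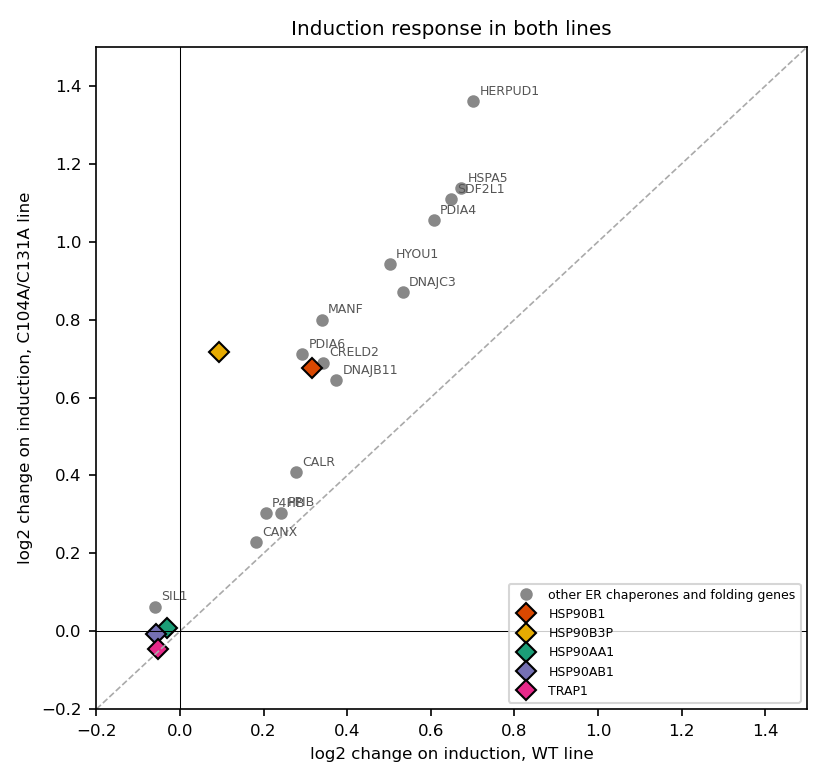
Log2 change on induction in the WT line (x axis) against the mutant line (y axis) for the 15 measured ER chaperones and folding genes (grey) and the 5 members (diamonds), with the line of equal change dashed. HSP90B1 at 0.32 and 0.68 lies within the grey points. HSP90B3P at 0.09 and 0.72 lies left of all grey points but SIL1 (-0.06 and 0.06). HSP90AA1, HSP90AB1 and TRAP1 lie near 0 on both axes.

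Partners and clients of HSP90B1 were a separate list. Of 19 measured genes 0 passed on induction in either line by limma, where 0.326% of all genes passed in the mutant and 0.114% in the WT line. The median log2 changes were 0.00 in the mutant and 0.03 in the WT line. CNPY3, the co-chaperone that serves HSP90B1 in folding Toll-like receptors, had a log2 change of 0.06 in the mutant line (adjusted p = 0.931) and 0.04 in the WT line (adjusted p = 0.996). Between the lines, the integrin gene ITGAV was 1.30-fold higher in the mutant line after induction (adjusted p = 0.00506) and was the 1 call of the list. Of all genes 21.6% passed there, 10.8% of them higher, so 1 call among 19 genes does not stand out.

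Of all genes 0.326% passed on induction in the mutant and 0.114% in the WT line by limma, so a count of 0 in a short list is near that share. Of 26 measured co-chaperones of cytosolic HSP90, 0 passed on induction in either line, with medians of -0.04 in the mutant and -0.02 in the WT line. Their log2 changes lay between -0.22 and 0.10 in the mutant line. Of 13 measured targets and regulators of the heat shock response 0 passed either, with changes of -0.12 to 0.13 in the mutant and -0.18 to 0.06 in the WT line. Of 18 mitochondrial chaperones and TRAP1 partners 0 passed (medians -0.05 and -0.01). HSPA9, the mitochondrial Hsp70, was at 1.01-fold and the chaperonin HSPD1 at 0.995-fold in the mutant line.

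Between the uninduced lines 21.4% of all genes passed, and the lists are to be read against that share. Of the 26 co-chaperones 5 were higher and 2 lower in the mutant line: SUGT1, a partner of HSP90 in the assembly of immune receptors and kinetochores, was at 0.567-fold (adjusted p = 9.58e-07, limma), CHORDC1 at 0.616-fold, and the nuclear distribution protein gene NUDC at 1.38-fold. Of the 13 heat shock genes 3 were higher and 1 lower, with the small heat shock protein gene HSPB1 at 3.82-fold (adjusted p = 5.37e-07). TRAP1 itself missed the threshold there (adjusted p = 0.0542, limma), with its brighter probe set higher and its second one lower in the mutant line. Of the 18 mitochondrial genes 7 were higher and 0 lower, with the kinase gene PINK1 at 1.57-fold and HSPA9 at 1.33-fold. HSPA9, GRPEL2 and SDHA, 3 of those 7, lie on chromosome 5, where 390 of 782 measured genes were higher and 9 lower, and SUGT1 lies on chromosome 13, where 163 of 316 were lower and 15 higher. The part of these chromosomes in the list counts was not tested.

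Genes most like each member were found by the correlation of log2 levels over the 12 arrays, which share their groups, so that r carries the group pattern as well as array noise. For HSP90B1 they were HSPA5 (r = 0.988), HERPUD1 (0.988), SLC35B1 (0.978), PDIA4 (0.973) and MAGT1 (0.971). For the deviations from the group means r was lower, from -0.176 for PDIA4 to 0.599 for MAGT1. For HSP90B3P they were the desaturase gene SCD (0.964), DERL2 (0.954), the sterol synthesis genes HMGCS1 (0.951) and IDI1 (0.945), and FKBP1A (0.948). For HSP90AA1 they were TAF1D, RSL1D1, CLGN, SCARNA9 and PAPOLA (0.958 to 0.967), for HSP90AB1 they were DDX50, LEPROTL1, TNFSF14, FBXO7 and ACTR3 (0.855 to 0.909), and for TRAP1 they were PITRM1, NADK, RCC2, SELENBP1 and TUBB2B (0.954 to 0.965). Among the members, HSP90AA1 and TRAP1 had r = -0.799 and HSP90AA1 and HSP90AB1 r = 0.432, with -0.239 and 0.122 for the deviations from the group means.

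The genes that share the ERSE letters with HSP90B1 were listed by sequence, though the motif was picked with these results known. Besides HSP90B1, 18 measured genes had an ERSE match in a window, and 8 of them rose in the mutant line and 0 fell, against 0.321% of all genes that rose. Their median log2 change was 0.30 against -0.01 over all genes. The 8 were HSPA5, PDIA6 (1.64-fold), CRELD2 (1.61-fold), ERO1B (1.57-fold), FICD (1.41-fold), CALR (1.33-fold), XBP1 (1.31-fold) and SERP1 (1.25-fold), of which HSPA5, PDIA6, CRELD2 and CALR are also in the list of ER chaperones. In the WT line 3 rose, against 0.114% of all genes, XBP1 (1.37-fold, adjusted p = 0.00439, limma), HSPA5 and CALR, with a median of 0.23. Of 71 measured genes with the heat shock element, besides HSP90AA1 and HSP90AB1, 0 passed on induction in either line by limma, and the medians were 0.00 in both.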

How the data were processed

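RNA of 12 cultures (250 ng each) was labelled across whole transcripts for 1-colour Affymetrix arrays, per the labels' protocols. The authors deposited 1 column of log2 levels for each array; the submitters' processing notes name RMA, which corrects background, quantile-normalizes arrays and summarises probes, so a shift of most genes 1 way would not be seen. The log base was read from the range, 1.06 to 14.10, with software and genome build not given in the sources used here.

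Of 32321 probe sets, 19158 have 1 gene symbol, 1388 several and 11775 none in GEO's platform annotation. Genes with several probe sets were represented by the brightest on average, which left 18404 genes (18376 matched GRCh38.p14 RefSeq by Entrez ID). Limma 3.58.1 (R 4.3.3, statmod 1.5.0) fitted 1 mean per group over all 12 arrays. Two-sided p-values were adjusted over the whole table by Benjamini-Hochberg, with a threshold of 0.05. Standard errors are moderated ones, and the steps were tested on simulated data. The second TRAP1 probe set was fitted with all 19158.

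The members and lists were chosen with earlier results of these data known. Named were all members, ERO1A, all HSP90 pseudogenes, up to 4 called genes per list, 6 fixed genes whatever their values (of which AHSA1 and HSPA1A had no probe set of their own), and the 5 genes most like each member. ERSE and ERSE-II genes past the threshold and the cell type markers were named after their values were seen. Motifs were searched on both strands with Python 3.11.15.

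Same-letter deviations from the group means correlated with r of 0.391, 0.139 and 0.246 between uninduced and induced WT arrays, so the letters were taken to pair these; this comes from the data, as no label ties letters to a batch. In the mutant line r was 0.117, -0.143 and -0.0192. Alternatives were a replicate block, centred arrays, dim genes left out, the mean of probe sets, all probe sets, another prior, array weights, ordinary analysis of variance, the compared arrays alone and leaving out each array. Added after seeing the data were a block in the WT line alone and leaving out WT uninduced A and mutant induced B together, the extremes of the leading component of the deviations. Figures were drawn with matplotlib 3.10.9.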

Additional observations from a re-analysis of the deposited data

How the results depend on the processing

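Over 23 alternatives for WT induction and 21 or 22 for the others, the log2 changes of HSP90B1 and HSP90B3P in the mutant line stayed between 0.65 and 0.70 and between 0.65 and 0.77. For mutant induction 2 members were past the threshold, 1 without dim genes (HSP90B3P was not tested there), and 2 to 2 with an array left out. Nothing is read from that count, since HSP90B1 and HSP90B3P were chosen on it. For WT induction the 1 call became 0 with the replicate block, with the block in the WT line alone, with centred arrays, with all probe sets, with the compared arrays alone and without the 2 extreme arrays, and was 0 to 0 with an array left out. For the difference of the responses 0 became 1 with the prior with trend and robust fitting (HSP90B1, chosen on a part of this value), and was 0 to 0 with an array left out. For the lines before induction 1 became 2 without dim genes, with that prior, with array weights and with ordinary analysis of variance, each adding TRAP1, and was 0 to 1 with an array left out. For the lines after induction 4 became 2 with the compared arrays alone and without the 2 extreme arrays, and was 2 to 4 with an array left out. Those counts include HSP90B1 and HSP90B3P, which were chosen on the induced mutant arrays. In the 2 fits with 2 calls these were the ones left, and HSP90AA1 and TRAP1 lost theirs. The block changed the calls of HSP90B1 in the WT line and of TRAP1 between the lines after induction (adjusted p = 0.0559, limma), and no other call of a member. Between the lines same-letter deviations correlated with r of -0.123, -0.147 and 0.0893 without and 0.320, 0.144 and -0.126 with induction. With mixed signs in each state the letters were not taken to pair these arrays, though these values do not settle it.

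Values near 0 that had not passed changed sign. With array weights HSP90AA1 was at -0.0090 for mutant induction and the second TRAP1 probe set at 0.077 for the difference. With centred arrays HSP90AB1 was at 0.0038 for mutant induction and 0.0088 for the lines after induction. Without the 2 extreme arrays it was at 0.0078 in both, TRAP1 at -0.0023 for the difference and its second probe set at 0.062. With the mean of its probe sets TRAP1 was at 0.030 for WT induction, -0.046 for the difference and -0.020 for the lines after induction, where it had been called. With an array left out the mutant induction value of HSP90AA1 was -0.047 to 0.053, of HSP90AB1 -0.035 to 0.0083 and of the second TRAP1 probe set -0.12 to 0.15. For WT induction HSP90B3P was at -0.011 to 0.17 and HSP90AA1 at -0.087 to 0.014. For the difference HSP90AA1 was at -0.015 to 0.094, TRAP1 at -0.018 to 0.033 and its second probe set at -0.23 to 0.039. For the lines the second probe set was at -0.22 to 0.032 before induction and HSP90AB1 at -0.035 to 0.014 after it. The cause was not tested in any of these. The share of all genes called ranged from 0.109% to 1.04% for mutant induction, 0.00543% to 0.831% for WT induction, 0% to 0.0869% for the difference, 16.2% to 41.6% before and 16.3% to 41.3% after induction between the lines.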

Other observations

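The shorter element ERSE-II, absent from the windows of the HSP90 members, occurred near the starts of 16 measured genes. Of these, 3 rose in both lines and 0 fell, where 0.321% of all genes rose in the mutant and 0.114% in the WT line. They were HERPUD1 (2.57-fold in the mutant and 1.63-fold in the WT line), SDF2L1 (2.16-fold and 1.57-fold) and HYOU1 (1.92-fold and 1.42-fold), each with an adjusted p of 0.00224 or lower in limma. The median log2 changes over the 16 were 0.03 and 0.01. The TGACGTG core, which the most upstream HSP90AB1 window holds, marked 343 other measured genes, of which 4 rose in the mutant and 1 in the WT line, with medians of 0.01 and -0.01. Matches are descriptions of the reference letters, and binding was not measured.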
